A study of Mus musculus with 12 samples.

Results

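The cytosolic ribosomal protein genes encode the proteins of the ribosome that translates nuclear messenger RNAs. They were taken by name: every gene of the expression table whose symbol is Rpl or Rps with a number and at most one further letter a, x or l, together with Rplp0, Rplp1, Rplp2 and Rpsa. The rule found 81 of the 34714 genes in the table, 50 of the large subunit (Rpl) and 31 of the small subunit (Rps and Rpsa). Of these, 76 were core members and 5 were paralogues whose symbol ends in l: Rpl3l, Rpl10l, Rpl32l, Rpl39l and Rps27l. RNA came from hearts of mice, in a study of leflunomide as a protection against heart injury by anti-PD-1 antibody in a mouse model of melanoma. The groups were aPD1_lef (anti-PD-1 antibody with leflunomide, 4 libraries), aPD1_veh (anti-PD-1 antibody with veh, read as vehicle, 4 libraries) and IgG_lef (IgG, the control antibody, with leflunomide, 3 of the 4 labelled libraries). Anti-PD-1 blocks an inhibitory receptor of T cells, and leflunomide is an immunosuppressant that blocks an enzyme of pyrimidine synthesis. A group of IgG with vehicle was not analysed here: aPD1_veh and IgG_lef differed in both antibody and drug, and every comparison shares a group with the other two. The labels give no strain, sex, age, dose or time, and do not say whether libraries are from separate animals: p-values measure only the spread between these samples, which may be technical.

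A ribosome carries one copy of most of its proteins, and their genes are among the most strongly transcribed in any cell. Their messages share a short pyrimidine tract at the start, through which growth signalling controls their translation, so the RNA level is only one part of how much protein is made. Muscle is unusual in having its own version of one large subunit protein: Rpl3l, made in heart and skeletal muscle, can take the place of Rpl3, which lies close to the catalytic centre where peptide bonds form.

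Rpl3 and Rpl3l are separate genes, with Rpl3 at chr15:80077781-80083406 and Rpl3l at chr17:24727826-24736143 (GRCm38). Their coding sequences, 1212 and 1224 bases long, could be aligned over 1208 positions without a gap, of which 899 (74.4%) were identical, and the longest identical stretch was 22 bases. The first 120 coding bases of each are printed to show how far reads of the pair can be told apart. Capitals mark the 31 positions at which they differ (GENCODE M21 transcripts, 5′ to 3′).
Rpl3: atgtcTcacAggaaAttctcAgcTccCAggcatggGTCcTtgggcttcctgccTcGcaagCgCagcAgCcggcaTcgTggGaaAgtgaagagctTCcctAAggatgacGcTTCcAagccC
Rpl3l: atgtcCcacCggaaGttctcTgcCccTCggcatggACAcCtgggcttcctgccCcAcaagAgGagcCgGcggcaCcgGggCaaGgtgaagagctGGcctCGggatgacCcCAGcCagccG

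Values were taken as FPKM, a level scaled to transcript length and sequencing depth, and summed to between 393494 and 465511 per library. Of the 81 members, 78 reached 1 FPKM in at least 4 libraries and were tested, and 3 paralogues did not: Rpl10l was listed at 0 in every library, and Rpl32l and Rpl39l stayed under 1 FPKM. Core members averaged between 24.1 FPKM (Rpl21) and 1149.7 FPKM (Rplp1) over the 11 libraries, with a median of 349 FPKM, and 58 of the 76 lay between 200 and 600 FPKM. Only 6 averaged under 100 FPKM: in rising order Rpl21, Rps15a, Rps20, Rpl17, Rpl7a and Rpl22. Ribosomal protein genes have many near-identical pseudogene copies, and whether reads were split with them was not tested, so these levels are uncertain. All members together made up 5.71% to 9.20% of the summed FPKM of a library. Cell type markers also differed between the groups: the summed level of 8 cardiomyocyte markers was 8603 to 22886 FPKM in aPD1_lef, 23710 to 33247 FPKM in aPD1_veh and 24345 to 29085 FPKM in IgG_lef. The 6 fibroblast markers summed to 1129.7 to 2551 FPKM in aPD1_lef, 369 to 535 FPKM in aPD1_veh and 602 to 1041 FPKM in IgG_lef. Erythroid markers (4 genes) summed to 2835 to 3286 FPKM in aPD1_lef, 6211 to 10299 FPKM in aPD1_veh and 1936 to 9376 FPKM in IgG_lef, and all 4 fell in aPD1_lef against aPD1_veh. The 4 neutrophil markers summed to 3.01 to 50.4 FPKM, 47.6 to 102 FPKM and 3.22 to 13.3 FPKM in the same order, and S100a8 and S100a9 among them fell in that comparison. The part of these cell types in the levels of the ribosomal proteins was not tested. Transcripts of the atria, read from Myl7 above 10 FPKM, were present in 3 libraries (aPD1_lef replicates 1 and 2 and IgG_lef replicate 2). In whole heart tissue, fewer cells of a type and less RNA per cell cannot be told apart.

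The comparison of aPD1_lef with aPD1_veh asks what leflunomide did to hearts that had received anti-PD-1. The pair Rpl3 and Rpl3l moved in opposite directions: Rpl3 was about doubled in aPD1_lef (ratio of group means 2.10) and Rpl3l fell to 0.277 of its level in aPD1_veh. One further large subunit gene, Rpl39, whose small protein lines the exit tunnel of the ribosome, rose to a ratio of 1.38. The other 75 tested members did not pass the threshold of an adjusted p under 0.05 (limma, Benjamini-Hochberg over all 12005 genes tested). Called members were therefore 2 higher, against 18.2% of all genes tested, and 1 lower, against 14.3% of all genes.

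Rpl3 stood at 261, 209.6, 336 and 502 FPKM in aPD1_lef replicates 1 to 4. In aPD1_veh it stood at 174, 152, 153 and 142 FPKM, and in IgG_lef at 154, 166 and 193 FPKM. Every aPD1_lef library lay above every other library, and replicate 4 was the highest. Group means were 327 ± 127 FPKM in aPD1_lef (SD, n = 4) and 155 ± 13.4 FPKM in aPD1_veh (SD, n = 4), with a log2 change of 1.00 ± 0.22 SE and an adjusted p of 0.00889 from limma. Without replicate 4 of aPD1_lef the ratio of means was 1.73, and without replicate 2 it was 2.36.

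Rpl3l stood at 76.3, 113, 37.5 and 16.9 FPKM in aPD1_lef replicates 1 to 4. In aPD1_veh it stood at 183, 226, 230.1 and 239.5 FPKM, and in IgG_lef at 169.7, 167 and 144 FPKM. The aPD1_lef libraries were below all others without overlap, and within that group the library with the most Rpl3 (replicate 4) had the least Rpl3l while the library with the least Rpl3 (replicate 2) had the most Rpl3l. The means were 60.8 ± 42.4 FPKM and 219.7 ± 25.1 FPKM (SD, n = 4 each), a log2 change of -2.15 ± 0.45 SE with an adjusted p of 0.00663 from limma.

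**Figure D1:**
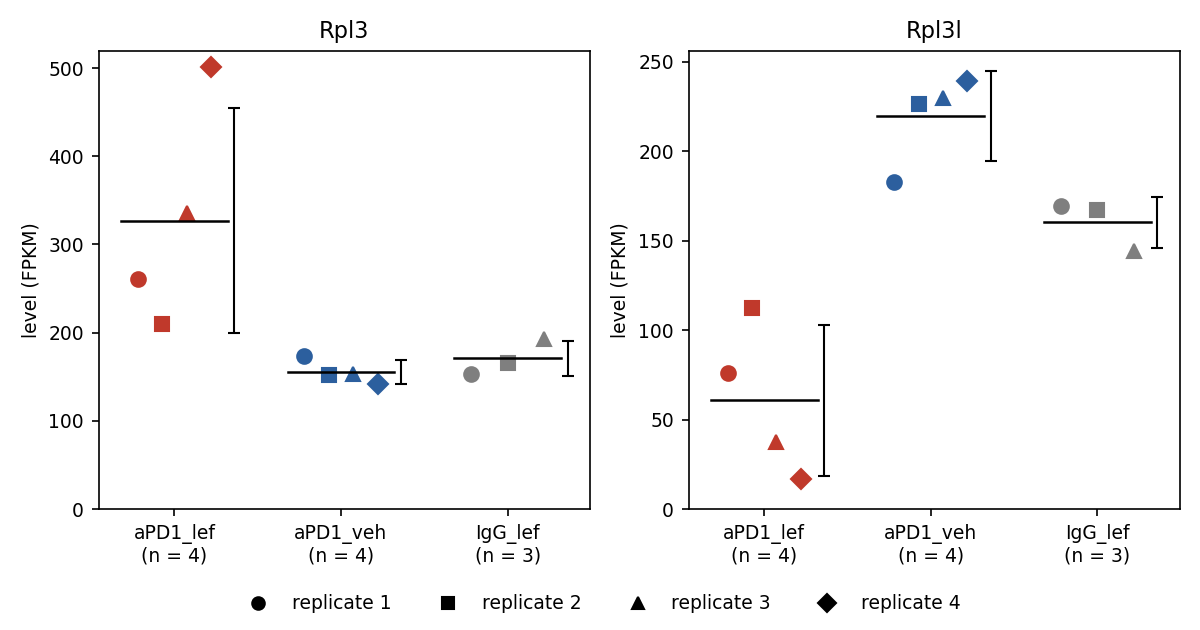
Level in FPKM of Rpl3 (left) and Rpl3l (right) in each library, by group; marker shapes give the replicate number, horizontal lines the group mean and bars 1 SD. All 4 aPD1_lef libraries lie above the other 7 for Rpl3 (209.6 to 502 FPKM) and below them for Rpl3l (16.9 to 113 FPKM).

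The sum of the pair moved less than either gene. Rpl3 and Rpl3l added up to 337, 322, 373 and 519 FPKM in aPD1_lef, to 357, 379, 383 and 381 FPKM in aPD1_veh and to 323, 333 and 337 FPKM in IgG_lef. Replicate 4 of aPD1_lef was the one library well outside the range of the rest. The share of the pair taken by Rpl3l was 22.6%, 34.9%, 10.05% and 3.26% in aPD1_lef. It was 51.3%, 59.8%, 60.03% and 62.8% in aPD1_veh and 52.5%, 50.2% and 42.7% in IgG_lef. The muscle form was thus the larger share in all 4 aPD1_veh libraries and the smaller one in all 4 aPD1_lef libraries. Since cardiomyocyte markers were also lower in aPD1_lef, Rpl3l was set against them. Per 1000 FPKM of the 8 summed cardiomyocyte markers it stood at 3.74, 4.92, 2.21 and 1.97 FPKM in aPD1_lef, at 6.88, 8.22, 9.70 and 7.20 FPKM in aPD1_veh and at 5.84, 6.03 and 5.92 FPKM in IgG_lef. The aPD1_lef libraries were below all others on this scale, which depends on the markers summed. With Myh6 alone as the scale the groups would overlap. In aPD1_lef replicate 4, Rpl3l stood at 16.9 FPKM beside 244 FPKM of Myh6. In IgG_lef replicate 1 the same genes stood at 169.7 and 2704 FPKM. The part of cardiomyocyte content in the fall of Rpl3l was not tested. Of the 8 markers, 3 (Tnni3, Ryr2 and Pln) fell in aPD1_lef against aPD1_veh, with a median log2 change of -0.70 over the 8.

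A second pair of this kind exists outside the ribosome. Eef1a1 encodes the general form of the elongation factor that brings aminoacyl-tRNA to the ribosome, and Eef1a2 the form of adult muscle and neurons. Eef1a1 stood at 1035, 1007, 1181 and 2052 FPKM in aPD1_lef, at 809.5, 797, 895 and 699 FPKM in aPD1_veh and at 808, 878 and 995 FPKM in IgG_lef. It was higher in aPD1_lef than in aPD1_veh without overlap (log2 change 0.66 ± 0.21 SE, limma adjusted p 0.0337). Eef1a2 stood at 153, 163, 128 and 92.3 FPKM in aPD1_lef, at 196, 173, 187 and 197 FPKM in aPD1_veh and at 166, 174 and 149 FPKM in IgG_lef. It was lower in aPD1_lef than in aPD1_veh, also without overlap (log2 change -0.52 ± 0.16 SE, limma adjusted p 0.0296). The muscle form took 4.30% to 13.9% of the pair in aPD1_lef, 17.3% to 21.9% in aPD1_veh and 13.0% to 17.0% in IgG_lef, so that here, unlike for Rpl3l, it was the smaller share throughout. Both calls were close to the threshold and were lost in 7 (Eef1a1) and 9 (Eef1a2) of the 21 alternatives tried, with adjusted p up to 0.0937 without aPD1_veh replicate 4 for Eef1a1 and up to 0.0758 without the same library for Eef1a2. Eef1a1 was also lost without aPD1_lef replicate 3 or aPD1_veh replicate 1 or 2, and Eef1a2 without aPD1_lef replicate 3 or any single aPD1_veh library.

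**Figure D2:**
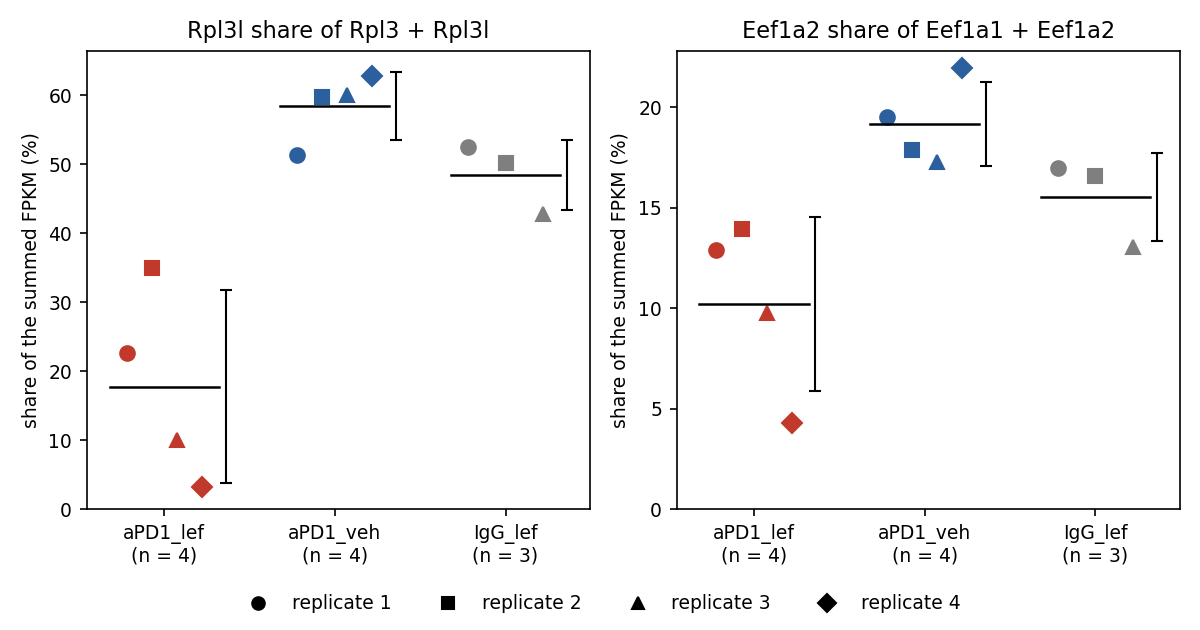
Share in percent of the muscle form in the summed FPKM of its pair, Rpl3l of Rpl3 and Rpl3l (left) and Eef1a2 of Eef1a1 and Eef1a2 (right), in each library by group; lines are means and bars 1 SD. Rpl3l takes 3.26% to 34.9% in aPD1_lef and 51.3% to 62.8% in aPD1_veh, while Eef1a2 takes under 22% everywhere.

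Among the remaining large subunit genes, Rpl39 stood at 356, 323, 407 and 509.6 FPKM in aPD1_lef, at 287, 304, 287 and 275 FPKM in aPD1_veh and at 311, 290.0 and 261 FPKM in IgG_lef. All aPD1_lef libraries were above all others, and replicate 2 came closest to them. The log2 change against aPD1_veh was 0.45 ± 0.14 SE with an adjusted p of 0.0293 from limma. This call was lost in 9 of 21 alternatives, among them leaving out aPD1_lef replicate 3 (adjusted p 0.0693) or aPD1_veh replicate 1, 2, 3 or 4 (adjusted p 0.0556 to 0.0784). Rpl22, an RNA-binding protein of the outer surface, stood at 87.3 to 110.1 FPKM in aPD1_lef and 81.0 to 86.2 FPKM in aPD1_veh, without overlap but with an adjusted p of 0.114 from limma. Rpl41, the shortest of the ribosomal proteins, had a log2 change of 0.32 (adjusted p 0.129), and Rpl7a one of -0.36 ± 0.27 SE (adjusted p 0.325).

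The P stalk, made of Rplp0, Rplp1 and Rplp2, recruits translation factors to the large subunit. Rplp1 was the most abundant member, at 1144, 1067, 1376 and 1720.3 FPKM in aPD1_lef and 1064, 1155, 1076 and 1080.0 FPKM in aPD1_veh, and the groups overlapped. Its log2 change was 0.25 (limma adjusted p 0.202), against -0.00 for Rplp0 (adjusted p 0.991) and -0.09 for Rplp2 (adjusted p 0.506). Rpl5 and Rpl11 bind the 5S RNA and, outside the ribosome, the p53 regulator Mdm2. They had log2 changes of 0.03 (adjusted p 0.877) and 0.25 (adjusted p 0.227). Rpl10, one of the last proteins to join the large subunit, had one of 0.21 (adjusted p 0.298).

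No small subunit gene of the 30 core ones was called, and their median log2 change was 0.02. The nearest to the threshold was Rps12, at 228, 177, 247 and 363 FPKM in aPD1_lef and 181, 185, 168 and 173 FPKM in aPD1_veh. Only replicate 2 of aPD1_lef fell within the aPD1_veh range (log2 change 0.47 ± 0.18 SE, limma adjusted p 0.0604). Rps27a, which is made as a fusion with ubiquitin, stood at 135, 98.1, 112 and 168 FPKM in aPD1_lef and 95.6, 91.9, 91.6 and 94.5 FPKM in aPD1_veh. Its groups did not overlap, yet the adjusted p was 0.1001 from limma. Rps2, at the entry of the messenger channel, had a log2 change of -0.32 (adjusted p 0.115), and Rps27, a zinc-finger protein, one of -0.33 (adjusted p 0.133). The remaining small subunit genes picked for their known roles were all near 0: Rps6, the substrate of S6 kinase, 0.02 (adjusted p 0.951), Rps19, mutated in human Diamond-Blackfan anaemia, 0.04 (adjusted p 0.854), Rps4x, encoded on the X chromosome, 0.03 (adjusted p 0.877), and Rpsa, known also as the laminin receptor precursor, 0.11 (adjusted p 0.650).

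Of the paralogues, Rps27l was the only one besides Rpl3l that was tested. It stood at 121, 119, 125 and 112 FPKM in aPD1_lef, at 116, 114, 104 and 114 FPKM in aPD1_veh and at 122, 121 and 111 FPKM in IgG_lef. The groups overlapped (log2 change against aPD1_veh 0.09 ± 0.08 SE, limma adjusted p 0.383), and unlike most core members it was lowest in replicate 4 among the aPD1_lef libraries.

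**Figure D3:**
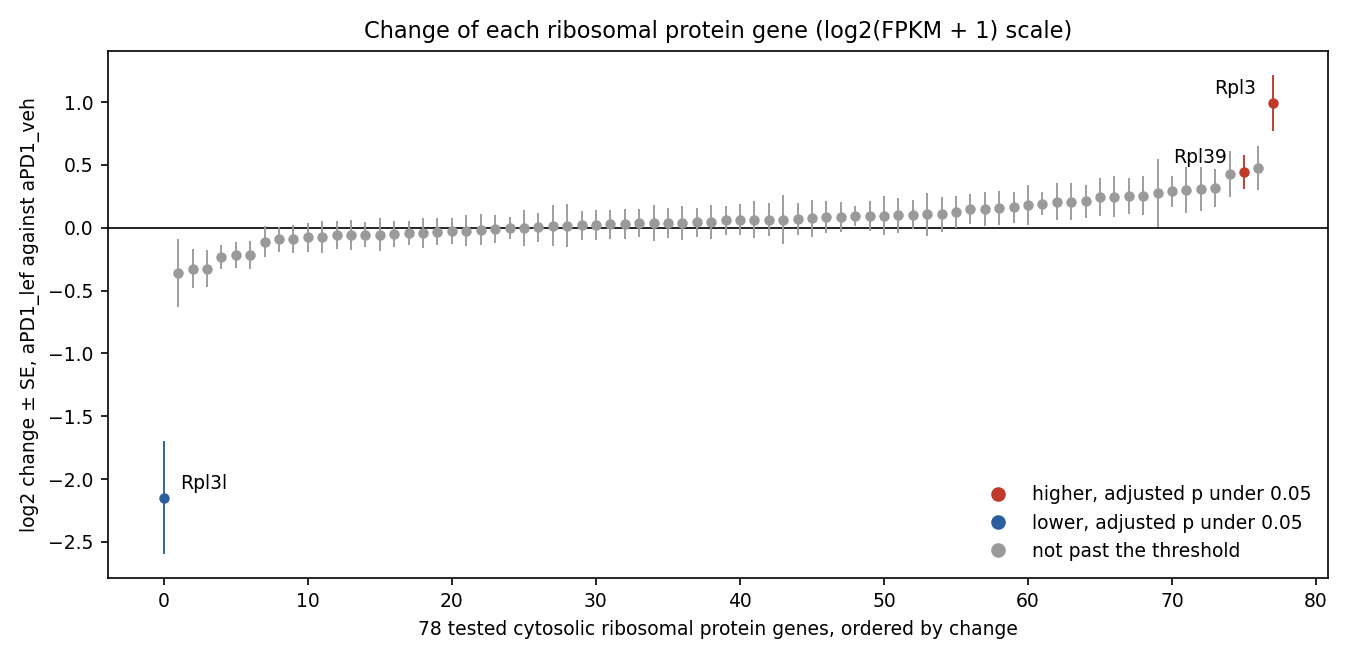
Log2 change of aPD1_lef against aPD1_veh with its SE for the 78 tested ribosomal protein genes, in order of the change; colours mark an adjusted p under 0.05. Rpl3l (-2.15) and Rpl3 (1.00) lie apart from the rest, and Rpl39 (0.45) is the third coloured point.

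Over all 78 tested members the median log2 change was 0.05, beside 0.04 over all genes tested. Of the members 52 were positive and 26 negative, and positive changes over all genes were not counted. This near-zero median hid a spread within the aPD1_lef group. Replicate 4 held the highest level of all 11 libraries for 69 of the 76 core members. How often replicate 4 was the highest was not counted over all genes. Relative to the mean of replicates 1 to 3 its level was 1.01 to 2.15 times as high, with a median of 1.40, and it was above 1 for 76 of 76. The summed members reached 36206 FPKM there, against 25717, 25005 and 28278 FPKM in the other aPD1_lef libraries, 27313 to 28103 FPKM in aPD1_veh and 23610 to 25396 FPKM in IgG_lef. The same library had the fewest cardiomyocyte transcripts (8603 FPKM summed) and the most fibroblast transcripts (2551 FPKM), and the part of either in its ribosomal protein levels was not tested.

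Without replicate 4 of aPD1_lef the counts of the other members changed. The 2 higher calls were again Rpl3 and Rpl39, against 19.4% of all genes. Lower calls numbered 10, against 14.5% of all genes, a share that this count does not exceed. Among them were Rpl3l, Rpl7a, Rpl9, Rpl36, Rps2, Rps3, Rps13, Rps15a and Rps27. The median of the members then became -0.08, and the all-gene median of that fit is not given here. The sign of the members' median in this comparison therefore rested on that library, and the directions of Rpl3, Rpl3l and Rpl39 did not. Scaling mattered as well. Once all libraries were brought to the same total, the median log2 change was 0.17 over all genes and 0.20 over the members, and 8 members were called higher, beside 29.0% of all genes. With quantile normalization it was -0.03 over all genes and 0.21 over the members, and 9 were called higher, beside 14.6% of all genes.

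**Figure D4:**
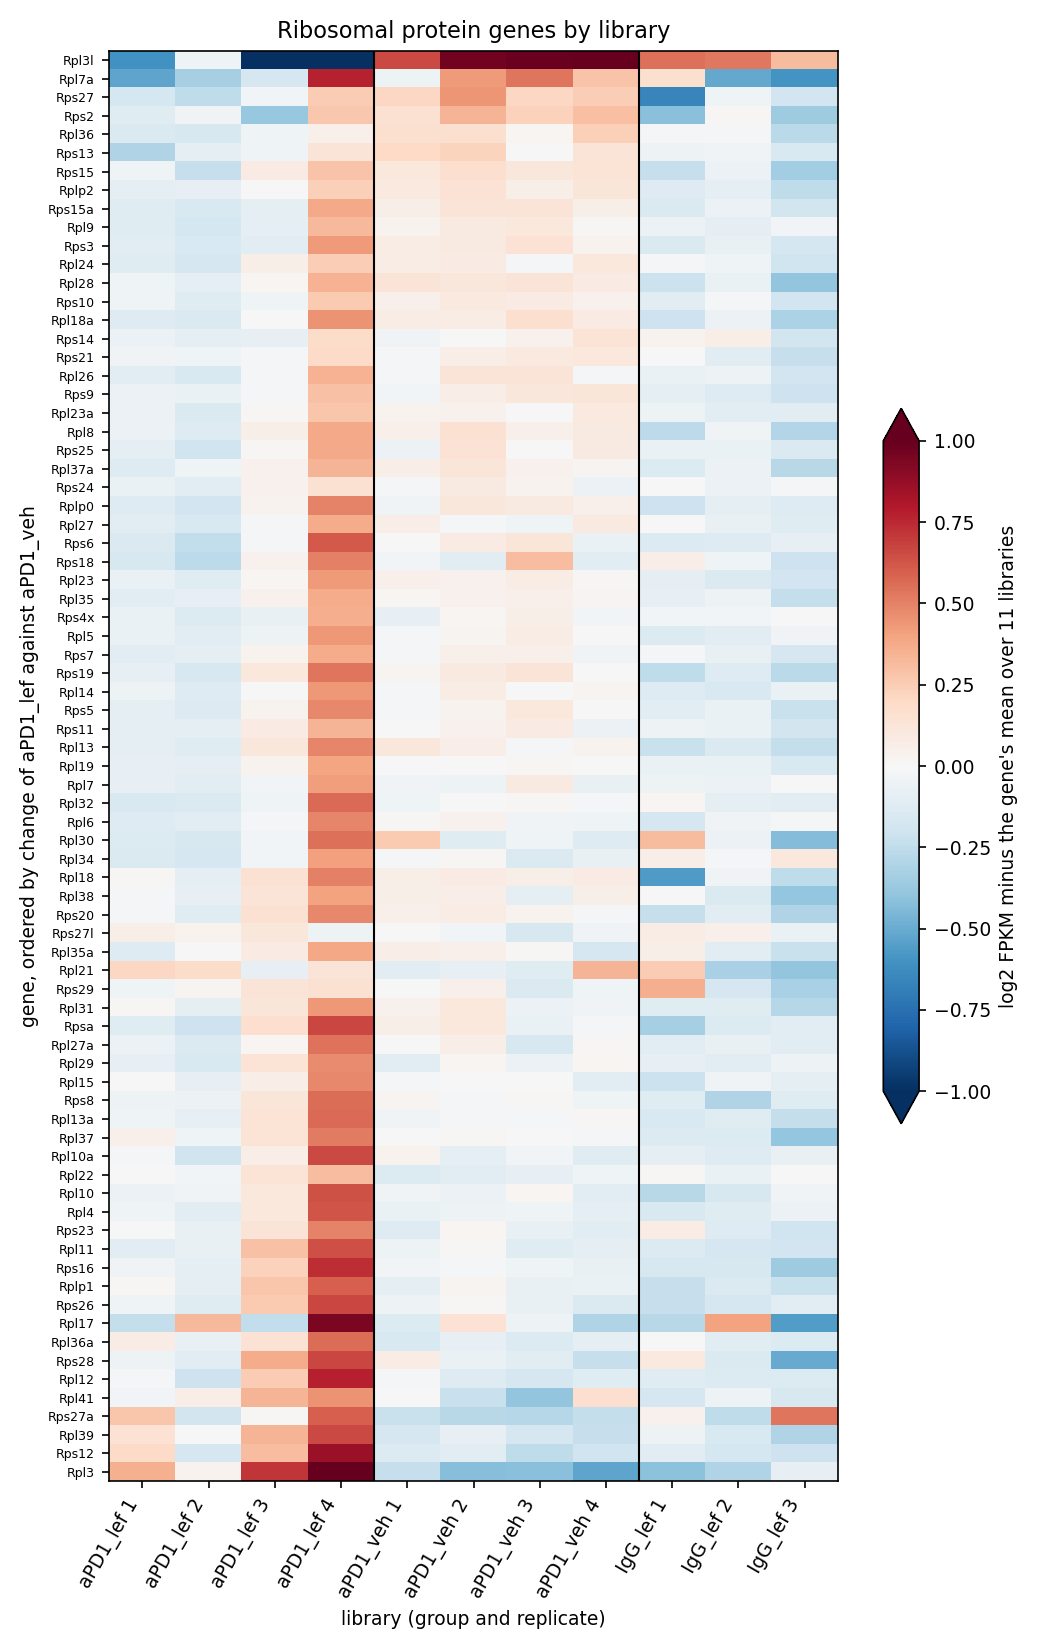
Log2 FPKM of each tested member shown minus its mean over the 11 libraries, one row per gene in the order of its change in aPD1_lef against aPD1_veh and one column per library; colours are capped at 1 in either direction. The column of aPD1_lef replicate 4 is the highest for 69 of 76 core members, and the rows at the top (Rpl3l) and bottom (Rpl3) run opposite to each other.

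To set such shifts of a whole library aside, each member was expressed relative to the median core member of its library. The SD of this log2 value over the 11 libraries was 0.0533 to 1.38, with a median of 0.112 over the 78 members. It was widest for Rpl3l, at 1.38, followed by Rpl3 at 0.44, Rpl7a at 0.37, Rpl17 at 0.32 and Rps27a at 0.31. On this scale Rpl3l was 2.31 lower and Rpl3 0.87 higher in aPD1_lef than in aPD1_veh.

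In aPD1_veh against IgG_lef, which differ in antibody and drug, 0 of 78 members were called by limma, beside 1.17% of all genes (0.242% higher and 0.925% lower). An unadjusted p under 0.05 was found for 7 of the 78 members, beside 1368 of all 12005 genes tested. The median log2 change was 0.14, with 71 positive, beside a median of 0.005 over all genes tested. The share of positive changes over all genes was not counted. Rpl3l was higher in each aPD1_veh library (183 to 239.5 FPKM) than in each IgG_lef library (144 to 169.7 FPKM). The ratio of means was 1.37, but its adjusted p was 0.804 (limma, log2 change 0.45 ± 0.48 SE). That SE comes from a spread shared by all 3 groups. Relative to its mean, Rpl3l varied most in aPD1_lef (60.8 ± 42.4 FPKM, SD, n = 4), which is not compared here. Over the 21 alternatives its limma adjusted p was 0.0542 to 0.989, and it was called in 0. Rpl3 had a log2 change of -0.13 ± 0.24 SE (adjusted p 0.896). The smallest p-values were those of Rps27 and Rps2. Rps27 stood at 656, 772, 655 and 674 FPKM in aPD1_veh and at 359.7, 551 and 498 FPKM in IgG_lef, with no overlap (log2 change 0.57 ± 0.17 SE, limma adjusted p 0.184). Rps2 stood at 613, 699.5, 648 and 679 FPKM in aPD1_veh and at 413, 555 and 432 FPKM in IgG_lef, again with no overlap (log2 change 0.51 ± 0.16 SE, adjusted p 0.211). In a fit without aPD1_lef replicate 4, which adds to the estimate of spread only, 3 members (Rpl28, Rps2 and Rps27) were called higher, beside 1.84% of all genes. Rpl7a had the largest positive log2 change, 0.60 (adjusted p 0.469), followed by Rps27, Rps2, Rpl3l and then Rpl18 at 0.35 (adjusted p 0.431). Rps27a had the most negative one, -0.36 (adjusted p 0.551), followed by Rpl3, Rpl34 at -0.11, Rps27l at -0.08 and Rpl22 at -0.07.

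In aPD1_lef against IgG_lef, which differ in antibody under leflunomide as labelled, 0 of 78 members were called by limma, beside 7.16% of all genes (5.15% higher and 2.01% lower). An unadjusted p under 0.05 was found for 10 of the 78 members, beside 3600 of all 12005 genes tested. Rpl3 and Rpl3l came closest. The Rpl3 means were 327 ± 127 FPKM (SD, n = 4) and 171 ± 20.2 FPKM (SD, n = 3), a log2 change of 0.86 ± 0.24 SE with an adjusted p of 0.0545 from limma. For Rpl3l they were 60.8 ± 42.4 FPKM and 160.3 ± 14.1 FPKM, a log2 change of -1.70 ± 0.48 SE with an adjusted p of 0.0568. Neither gene overlapped between the groups. Both passed the threshold without aPD1_lef replicate 4 (adjusted p 0.0319 for Rpl3 and 0.0425 for Rpl3l) and without aPD1_lef replicate 2 (0.0129 and 0.0124), so whether they were called depended on single libraries. Without replicate 4 they were the only members called, beside 7.04% of all genes higher and 3.6% lower. Rpl39 had a log2 change of 0.45 ± 0.15 SE (adjusted p 0.0755), Rps12 one of 0.46 (adjusted p 0.134), Rps16 one of 0.43 (adjusted p 0.130) and Rpl18 one of 0.43 (adjusted p 0.102). The median log2 change of the members was 0.07 without replicate 4. With all libraries it was 0.18, beside 0.03 over all genes tested, and 76 members were positive, a share not counted over all genes. Only Rpl3l and Rpl34 (-0.03) were negative, and Rps13 (0.00), Rps14 (0.01) and Rps27l (0.02) were nearest above 0.

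Beside the cytosolic ribosome, the mitochondrial ribosome, which translates the few proteins encoded in mitochondrial DNA, had 78 genes tested. Of these, 0 were called higher and 43 lower in aPD1_lef against aPD1_veh, beside 18.2% and 14.3% of all genes, with a median log2 change of -0.40, where the cytosolic members had 2 and 1 with a median of 0.05. Leaving out a single library gave 20 (without aPD1_veh replicate 4) to 52 lower calls of mitochondrial ribosomal genes. The shares of all genes in those fits are not set beside these counts. The proteasome, another large and steadily made complex, had 37 genes tested, of which 2 were higher (Psma5 and Psmd8) and 1 lower (Psmc3), beside the same shares of all genes, with a median of -0.01. In aPD1_veh against IgG_lef limma called 0 genes of either set, beside 1.17% of all genes. An unadjusted p under 0.05 was found for 7 mitochondrial ribosomal and 4 proteasome genes, beside 1368 of all 12005 genes. The medians were 0.19 for the mitochondrial ribosome, 0.14 for the cytosolic one and -0.04 for the proteasome. In aPD1_lef against IgG_lef, Mrpl39 and Mrpl50 were called lower, beside 2.01% of all genes, and 0 proteasome genes were called. Of the proteasome genes 7 had an unadjusted p under 0.05, beside 3600 of all 12005 genes. The medians were -0.24, 0.18 and -0.03 in the same order. The 3 sets are set side by side as descriptions, and a difference between sets was not tested.

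**Figure D5:**
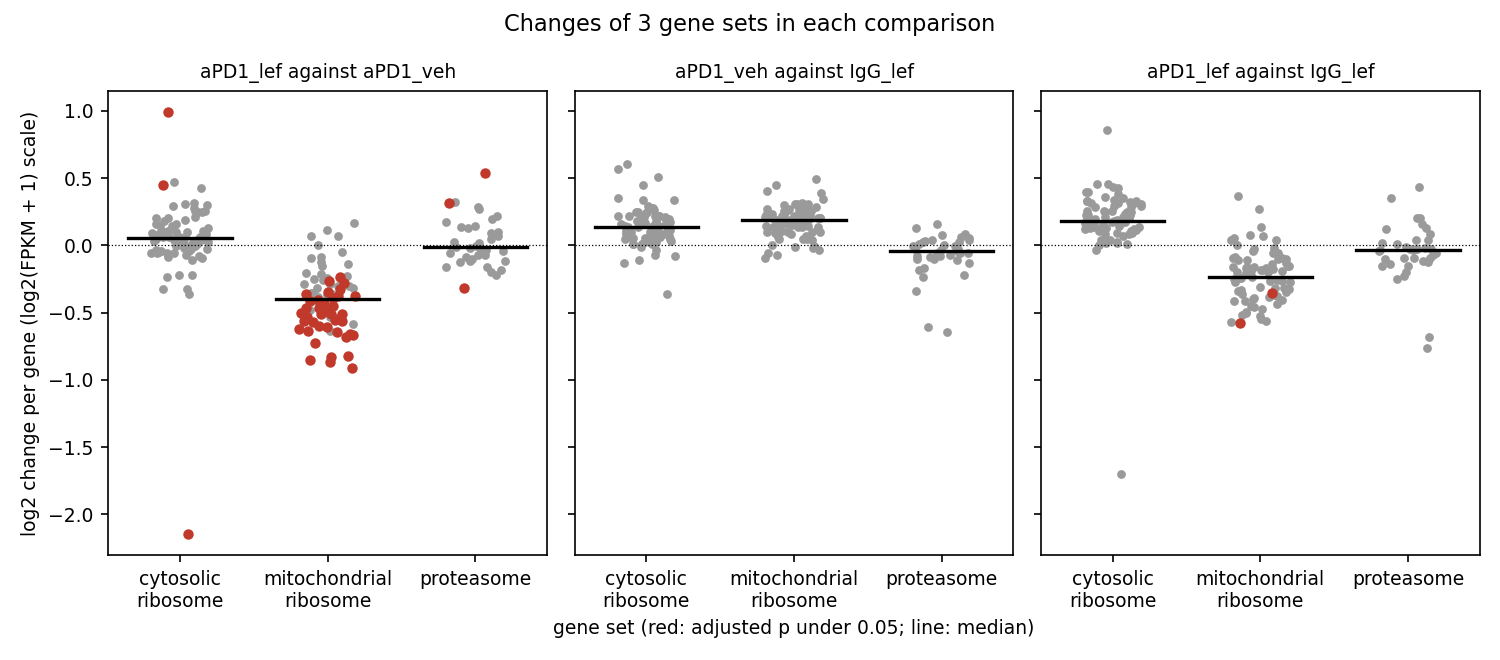
Log2 change of each tested gene of the cytosolic ribosome (78), the mitochondrial ribosome (78) and the proteasome (37) in the 3 comparisons; red points have an adjusted p under 0.05 and lines are medians. In aPD1_lef against aPD1_veh the mitochondrial set has 43 red points, all below 0, while the cytosolic set has 3.

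Some proteins of the cytosolic ribosome have names outside the rule. Of these, Fau (log2 change 0.09, adjusted p 0.620), Rack1, a scaffold on the small subunit (0.09, adjusted p 0.666), Rps3a1, Rpl22l1, Rpl36al and Rpl7l1 were not called.

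Ribosomes are built in the nucleolus, where RNA polymerase I makes the ribosomal RNA and many factors fold, cut and modify it. Of 66 nucleolar processing and assembly genes tested, 12 were higher and 1 lower in aPD1_lef against aPD1_veh, beside 18.2% and 14.3% of all genes, with a median log2 change of 0.19. Gar1, of the particles that place pseudouridines, rose from 7.07 to 9.93 FPKM (log2 change 0.43, limma adjusted p 0.00981), and Bop1, needed for large subunit maturation, had a log2 change of 0.45 (adjusted p 0.0143). Emg1, a methyltransferase of small subunit RNA, was the one called lower, at -0.39 (adjusted p 0.00573). These 3 genes were called in all 21 alternatives. The number of higher calls was 4 without aPD1_lef replicate 3, without aPD1_veh replicate 2 or without aPD1_veh replicate 4, and 5 without aPD1_veh replicate 3. The shares of all genes in those fits are not given here. With quantile normalization it was 7, beside 14.6% of all genes, and after scaling to one total it was 32, beside 29.0% of all genes. Against IgG_lef, 4 of the 66 were higher (Fbl, Gar1, Nob1 and Bysl), beside 5.15% of all genes. For example, Gar1 had a log2 change of 0.55 (adjusted p 0.0223), and each of the 4 calls was lost without at least 1 of the libraries left out in turn. Of 15 genes of RNA polymerase I and its factors, Polr1e was higher (0.70, adjusted p 0.0120) and Polr1a, the largest subunit, lower (-0.40, adjusted p 0.0222; 0.0652 without aPD1_veh replicate 2 and 0.0531 without replicate 3) in aPD1_lef against aPD1_veh, beside the same shares of all genes as above.

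Newly made ribosomal proteins are guarded by dedicated chaperones, of which 7 were tested, with 1 higher and 1 lower in aPD1_lef against aPD1_veh, beside 18.2% and 14.3% of all genes. Grwd1, known as the chaperone of Rpl3, stood at 7.51, 6.96, 10.2 and 10.1 FPKM in aPD1_lef and at 7.02, 6.83, 5.98 and 5.50 FPKM in aPD1_veh. It was called higher although replicate 2 of aPD1_lef lay within the aPD1_veh range (log2 change 0.39 ± 0.13 SE, limma adjusted p 0.0377), and the call was lost in 12 of 21 alternatives, with adjusted p up to 0.114. Among these were leaving out aPD1_lef replicate 3 (0.103) or 4 (0.0671), aPD1_veh replicate 2 (0.0605), 3 (0.0823) or 4 (0.106), or IgG_lef replicate 1 (0.0515) or 2 (0.0505). Pdcd2, known as a chaperone of Rps2, stood at 6.84, 8.90, 7.32 and 7.42 FPKM in aPD1_lef, at 11.2, 9.98, 11.7 and 12.3 FPKM in aPD1_veh and at 10.0, 12.2 and 10.2 FPKM in IgG_lef. It was below the other groups in every aPD1_lef library, with a log2 change of -0.52 (adjusted p 0.00506) against aPD1_veh, called in all 21 alternatives. Against IgG_lef its log2 change was -0.46 (adjusted p 0.0382), a call lost in 13 of 21 alternatives. These included leaving out any single library other than aPD1_lef replicates 2 and 4.

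Of 18 translation factors and partners whose messages carry the same pyrimidine tract, Eef1a1 and Pabpc1, the main poly(A)-binding protein, were higher in aPD1_lef against aPD1_veh, and Eef1d, an exchange factor of Eef1a, and Eif3f were lower, beside 18.2% and 14.3% of all genes, which these counts do not exceed. Eef1d had a log2 change of -0.47 ± 0.09 SE (adjusted p 0.00453) and was called in all 21 alternatives. Pabpc1 had one of 0.71 (adjusted p 0.0401) and Eif3f one of -0.25 (adjusted p 0.0433), and these calls were lost in 10 and 15 of the 21. Of 20 genes of the MYC and mTOR pathways that drive ribosome production, 0 were higher and 3 lower, beside the same 18.2% and 14.3%, so that the lower calls were about as frequent as over all genes: Tsc2 (-0.39, adjusted p 0.0229) and Eif4ebp2 (-0.51, adjusted p 0.0188), both brakes on that pathway, and Maf1, a repressor of RNA polymerase III (-0.49, adjusted p 0.0146). Maf1 was called in all 21 alternatives, while Tsc2 was lost in 5 (adjusted p up to 0.0873) and Eif4ebp2 in 2 (without aPD1_veh replicate 2, 0.0527, or 3, 0.0506). Myc itself stood at 2.73, 2.13, 4.86 and 21.2 FPKM in aPD1_lef and at 1.67, 1.31, 4.81 and 2.57 FPKM in aPD1_veh, high in replicate 4 of aPD1_lef alone (log2 change 0.89 ± 0.54 SE, adjusted p 0.222).

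Free ribosomal proteins can hold back Mdm2 and so raise p53, and 7 genes of this arm were tested. In aPD1_lef against aPD1_veh 3 were higher (Trp53, Zmat3 and Phlda3) and 1 lower (Ccng1), beside 18.2% and 14.3% of all genes. Phlda3, a p53 target that restrains Akt, stood at 28.4, 21.8, 32.01 and 29.9 FPKM in aPD1_lef, at 11.7, 9.88, 9.81 and 7.43 FPKM in aPD1_veh and at 10.3, 12.5 and 12.6 FPKM in IgG_lef. All aPD1_lef libraries were above all others. Its log2 change was 1.44 ± 0.15 SE (limma adjusted p 0.000184) against aPD1_veh and 1.17 (adjusted p 0.00981) against IgG_lef, and the latter call was lost without IgG_lef replicate 1 (adjusted p 0.0698). Zmat3 had a log2 change of 0.49 (adjusted p 0.0146) and was called in all 21 alternatives, and Trp53 one of 0.57 (adjusted p 0.0297), lost in 8. Ccng1 was lost in 13. In aPD1_veh against IgG_lef, 0 of the 140 genes tested on these pathway lists were called by limma, beside 1.17% of all genes, and 9 had an unadjusted p under 0.05, as did 1368 of all 12005 genes.

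The stretches around transcription starts are shown for Rpl3l, which fell, and Rpl39, which rose; for Rpl3 there was no entry in the promoter table used. RefSeq windows of 300 bases (250 before and 50 after a start, GRCm38.p6) existed for 61 of the 81 members. They were searched on both strands for CTTTCC, a pyrimidine run like that at ribosomal gene starts, for CCGGAAG, the core bound by ETS family factors, for CAGCTG, an E-box of muscle factors, and for the MEF2 motif. Matches of one motif may overlap those of another. Among 66 windows of core members, 33 held CTTTCC, where 26.6% of all 32851 windows did, and 24 held CCGGAAG (36.4% against 8.86%). CAGCTG stood in 2 (3.03% against 16.3%), and the MEF2 motif in 0 (against 3.19%). The median GC content was 58.2% in core windows and 52.7% in all. The printed stretches run from 150 bases before to 30 after the start, 5′ to 3′ on the strand of the gene. Capitals mark CAGCTG at chr17:24727676-24727855 (plus strand, first start of Rpl3l), the MEF2 motif at chr17:24732535-24732714 (plus strand, second start of Rpl3l) and CCGGAAG read from the other strand at chrX:37085193-37085372 (minus strand, Rpl39). A match is only a description of the letters.
Rpl3l first start: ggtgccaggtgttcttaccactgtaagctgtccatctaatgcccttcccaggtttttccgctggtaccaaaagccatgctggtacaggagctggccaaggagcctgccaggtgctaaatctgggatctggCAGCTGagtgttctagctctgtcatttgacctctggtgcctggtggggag
Rpl3l second start: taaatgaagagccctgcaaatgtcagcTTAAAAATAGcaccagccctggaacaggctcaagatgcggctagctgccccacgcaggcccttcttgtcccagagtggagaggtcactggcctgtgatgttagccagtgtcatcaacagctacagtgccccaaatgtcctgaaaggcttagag
Rpl39: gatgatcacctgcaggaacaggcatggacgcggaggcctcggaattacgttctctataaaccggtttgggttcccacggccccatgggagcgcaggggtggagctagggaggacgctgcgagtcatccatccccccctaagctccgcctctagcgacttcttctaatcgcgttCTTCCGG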

How the data were processed

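Per the labels' protocols, RNA of mouse heart was taken up in TRIzol and libraries came from a NEBNext Ultra kit. The sources used here do not state the unit of the deposited table. Its values were taken as FPKM made by the authors, since they are not whole, their totals differ between libraries and low values scale with gene length. The submitters' processing notes list HISAT2, DESeq2 and the build mm10 but not what each was for. No counts are given, so the depth is unknown and no counting interval is given. Of 12 value columns, 11 matched a label and 1 matched none and was not used. With it the fourth IgG_lef sample was not analysed here.

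Genes of at least 1 FPKM in at least 4 libraries (12005) were analysed as log2(FPKM + 1) in one model of the 3 groups with limma 3.58.1 (trend and robust, statmod 1.5.0, R 4.3.3). Fold changes are on this scale, which understates those of low genes, and ratios are of mean FPKM. P-values were adjusted by Benjamini-Hochberg over all genes of a comparison, with a threshold of 0.05. The test was also run on simulated data with independent noise and, for each gene, the same SD in all groups. That simulation does not cover unequal spread between groups or a shift of a whole library, both seen here. Counts of calls over a list stand beside the share over all genes, and no list as a whole was tested. The alternatives were 3 scalings, limma without trend or without robust weights, a pseudocount of 0.1, no filter, only the 2 groups compared, a replicate block, leaving out each library, and leaving out the 3 libraries with Myl7 above 10 FPKM.

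The members, the gene lists and the alternatives were chosen with earlier results of these data known. The members named are Rpl3, Rpl3l, the stalk proteins, a fixed set of well-studied ones, the tested paralogues, the 5 most positive and 5 most negative log2 changes of each comparison, and the highest and lowest in level. Of each pathway list up to 3 called genes with the smallest p are given with values, with a few fixed by name. Others named, such as Rpl17 and the members called only without a library, were chosen after their values were seen. Not every gene chosen this way is reported here. Coordinates and promoters are from RefSeq (GRCm38.p6) and coding sequences from GENCODE M21. Python 3.11.15, pandas 2.3.3, NumPy 2.4.6, matplotlib 3.10.9 and Biopython 1.88 made the tables, alignment and figures.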

Additional observations from a re-analysis of the deposited data

Results flagged for a closer look

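In groups of 4 libraries, a library was singled out where its gap to the nearest of the other three, divided by the range of the group, passed Dixon's critical value for 4 samples. Of 72 groups examined, 7 passed. Chance gives about 0.05 of such groups, and the groups share libraries, so these are not independent. Replicate 4 of aPD1_lef was singled out 5 times. Rpl5 stood at 229 FPKM there and at 157 to 164 FPKM in the other aPD1_lef libraries. Rps4x stood at 529 FPKM against 373 to 391 FPKM, and Rps14 at 623 FPKM against 512 to 527 FPKM. Outside the ribosomal proteins, Eef1a1 stood at 2052 FPKM against 1007 to 1181 FPKM and Myc at 21.2 FPKM against 2.13 to 4.86 FPKM. In aPD1_veh, Rps27 was high in replicate 2, at 772 FPKM against 655 to 674 FPKM, and Rpl21 was high in replicate 4, at 30.3 FPKM against 21.9 to 22.6 FPKM.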

How the results depend on the processing

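Rpl3 and Rpl3l kept their direction and their call in aPD1_lef against aPD1_veh in all 21 alternatives, with log2 changes of 0.76 to 1.40 and of -3.06 to -1.66 and limma adjusted p of 0.0013 to 0.0298 and of 0.000455 to 0.0226. In no alternative run did a reported log2 change with a call reverse. Against 2 members called higher in that comparison, the count was 8 with libraries scaled to one total (beside 29.0% of all genes) and 9 with quantile normalization (beside 14.6%). It was 12 without the libraries with atrial transcripts (which leaves 2 aPD1_lef libraries). With median-ratio scaling, with no filter on low values or with only the 2 groups compared it was 1. Leaving out one library gave 1 to 5 higher (5 without aPD1_lef replicate 2) and 1 to 10 lower (10 without aPD1_lef replicate 4). In aPD1_veh against IgG_lef, 1 member (Rps2) was higher with only the 2 groups compared, and leaving out one library gave 0 to 3 higher (3 without aPD1_lef replicate 4). In aPD1_lef against IgG_lef, members called higher were 1 with one total, 2 with quantile normalization, 13 without the libraries with atrial transcripts, and 0 to 6 on leaving out one library (6 without aPD1_lef replicate 2). There 1 was lower with median-ratio scaling and without the atrial libraries, and 0 to 1 on leaving out one library. Apart from the libraries left out, the cause was not tested. Most counts in this paragraph have no share over all genes of the same setting beside them. They are therefore not read as results about the ribosomal proteins.

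Replicate numbers did not pair the samples: deviations of same-numbered libraries had correlations of -0.29 to 0.19. With the replicate number as a block, 1 member was higher and 1 lower in aPD1_lef against aPD1_veh, and 0 in the other comparisons.

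Groups of 3 or 4 libraries limit which changes can be seen, and the depth behind a level is unknown. How reads shared with pseudogene copies were counted is not given in the sources used here. Values on the deposited scale are relative to their own library, not amounts per cell.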
